A study of Mus musculus with 40 samples.

Results

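The keratin gene family was followed through 40 EMT-6 tumors. Its members were all protein-coding mouse genes whose symbol, taken from the Ensembl identifier, is Krt followed only by digits. This rule found 49 genes among the 39012 in the count table. They comprise 26 type I and 23 type II keratins. In GRCm38 they lie in 2 clusters, 25 genes on chromosome 11 from 99232761 to 100269871 and 24 on chromosome 15 from 101347444 to 102032027. Krt18 is the only type I member in the chromosome 15 cluster. One more symbol of this form, Krt74, is annotated as a pseudogene and was left out, and Krt6a and Krt6b fall outside the rule because their symbols end in a letter.

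Keratins are the intermediate filament proteins of epithelial cells, and each filament is built from pairs of a type I and a type II chain. Krt8 and Krt18 form the pair of simple, single-layered epithelia and of many carcinomas. Krt5 and Krt14 form the pair of basal keratinocytes and myoepithelial cells, Krt1 and Krt10 replace them as keratinocytes of the epidermis differentiate, and further sets build the hair shaft and the root sheaths around it. EMT-6 is a mouse mammary carcinoma line, and a tumor grown from it in the mammary pad lies close to skin, fat, muscle and mammary ducts of the host.

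Female Balb/C mice aged 8 to 12 weeks received 250000 EMT-6 cells in the right mammary pad. Treatment began 20 days later (day 0), when tumors averaged about 400 mm3. Doses were intravenous, on day 0 and the next 2 days, and tissue was collected at day 6. The isotype control group received an inactive anti-PD-L1 antibody (400 µg), and the anti-PD-L1 group the active antibody (400 µg). The bifunctional group received anti-PD-L1 fused to a trap for TGFβ (492 µg), and the trap control group the same fusion with the PD-L1 binding part mutated (492 µg). Each group holds 10 libraries of 1 tumor each, so all tumors carry the same cell line and every animal received some antibody protein.

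Each library held between 13495835 and 27658263 expected counts. The libraries fell into 2 sets by the share of counts on structural RNA genes: 16 libraries at 29.7% to 62.3% (set 1, all 10 isotype controls and 6 trap controls) and 24 at 11.7% to 18.0% (set 2, the other 4 trap controls, all anti-PD-L1 and all bifunctional libraries). Isotype control therefore shares no set with either anti-PD-L1 group, and for those comparisons treatment and set cannot be told apart. The labels name no batch. Levels of a gene in different libraries are given as CPM, the counts divided by the TMM-scaled library size. Levels of different genes are given as TPM, which also corrects for transcript length. TPM is not TMM-scaled, so ranges and list sums in TPM across libraries of both sets also carry differences between the sets. These are bulk tumors, in which fewer cells of a type and less RNA per cell cannot be told apart.

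The sequences upstream of 5 members are shown because these genes stand for the patterns described next: the simple pair, a basal keratin, a suprabasal keratin and a root sheath keratin. Each is the part of the 250 bases before the start given in the RefSeq table that also lies before the gene's 5′ end in GENCODE M21, 5′ to 3′ on the strand of the gene, from RefSeq on GRCm38.p6. The RefSeq start lies inside the GENCODE gene by 140 bases for Krt8, 36 for Krt18 and 12 for Krt71, and these bases are left out. Krt8 is at chr15:102004483-102004592 (minus strand), Krt18 at chr15:102027966-102028179 (plus), Krt5 at chr15:101712906-101713155 (minus), Krt10 at chr11:99389365-99389614 (minus) and Krt71 at chr15:101743110-101743347 (minus). Capitals mark matches to any of the 4 motifs searched.
Krt8: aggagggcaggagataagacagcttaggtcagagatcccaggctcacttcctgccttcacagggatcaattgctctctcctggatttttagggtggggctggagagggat
Krt18: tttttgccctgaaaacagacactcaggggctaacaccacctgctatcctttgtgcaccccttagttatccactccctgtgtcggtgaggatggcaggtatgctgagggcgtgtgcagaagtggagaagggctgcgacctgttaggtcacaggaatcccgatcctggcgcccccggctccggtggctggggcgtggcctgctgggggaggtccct
Krt5: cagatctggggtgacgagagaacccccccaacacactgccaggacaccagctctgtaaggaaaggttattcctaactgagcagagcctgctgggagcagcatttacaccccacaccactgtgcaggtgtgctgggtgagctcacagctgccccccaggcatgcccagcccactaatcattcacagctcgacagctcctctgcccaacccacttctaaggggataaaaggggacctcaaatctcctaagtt
Krt10: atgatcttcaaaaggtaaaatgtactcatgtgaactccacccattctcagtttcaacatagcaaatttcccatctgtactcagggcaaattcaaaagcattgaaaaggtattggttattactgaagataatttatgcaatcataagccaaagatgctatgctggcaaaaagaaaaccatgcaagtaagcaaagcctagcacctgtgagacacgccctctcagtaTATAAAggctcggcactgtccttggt
Krt71: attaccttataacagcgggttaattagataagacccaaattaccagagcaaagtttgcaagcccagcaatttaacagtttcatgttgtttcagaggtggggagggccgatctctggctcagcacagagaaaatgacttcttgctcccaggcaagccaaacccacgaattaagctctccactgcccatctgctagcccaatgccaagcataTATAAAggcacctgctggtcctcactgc

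A RefSeq promoter was found for 35 of the 49 members, with 36 entries in all. The starts of 3 entries, for Krt14, Krt7 and 1 of the 2 of Krt13, lie 1518, 1360 and 989 bases inside the GENCODE gene, so these windows may not be the main promoter. In the 250 bases before the start in the table, on both strands, the TATA box letters TATAAA were present in 44.4% of the keratin promoters and in 12.4% of all 32851 promoters. The match in Krt10 began at position -26 and that in Krt71 at -40, counted from the start in the table. By class, 7 of 9 root sheath keratins and 5 of 8 hair shaft keratins had these letters, against 0 of 3 simple keratins with an entry, Krt7 among them. The GC box GGGCGG was in 5.56% of keratin promoters and 32.7% of all promoters. The AP-1 motif TGANTCA was in 5.56% against 6.75%, and the E box CACGTG in 8.33% against 6.02%. No motif contains another, and a match is only a description of the sequence.

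Krt8 was by far the most abundant keratin. Its median over the 40 libraries was 77.7 TPM, followed by Krt18 with 5.97 TPM, Krt19 with 0.815 TPM, Krt80 with 0.735 TPM, Krt7 with 0.47 TPM and Krt14 with 0.405 TPM. Krt8 alone made up 50.2% to 91.3% of all keratin TPM in the 39 libraries other than the bifunctional library C0479, with a median of 87.6%. Krt8, Krt18, Krt19 and Krt80 were the 4 members with at least 10 counts in every library. At the other end, 2 hair shaft keratins, Krt40 and Krt82, had no counts in any library. In all, 30 of the 49 members reached 10 counts in at least 1 library, and 30 of the 49 had their highest count in C0479.

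**Figure D1:**
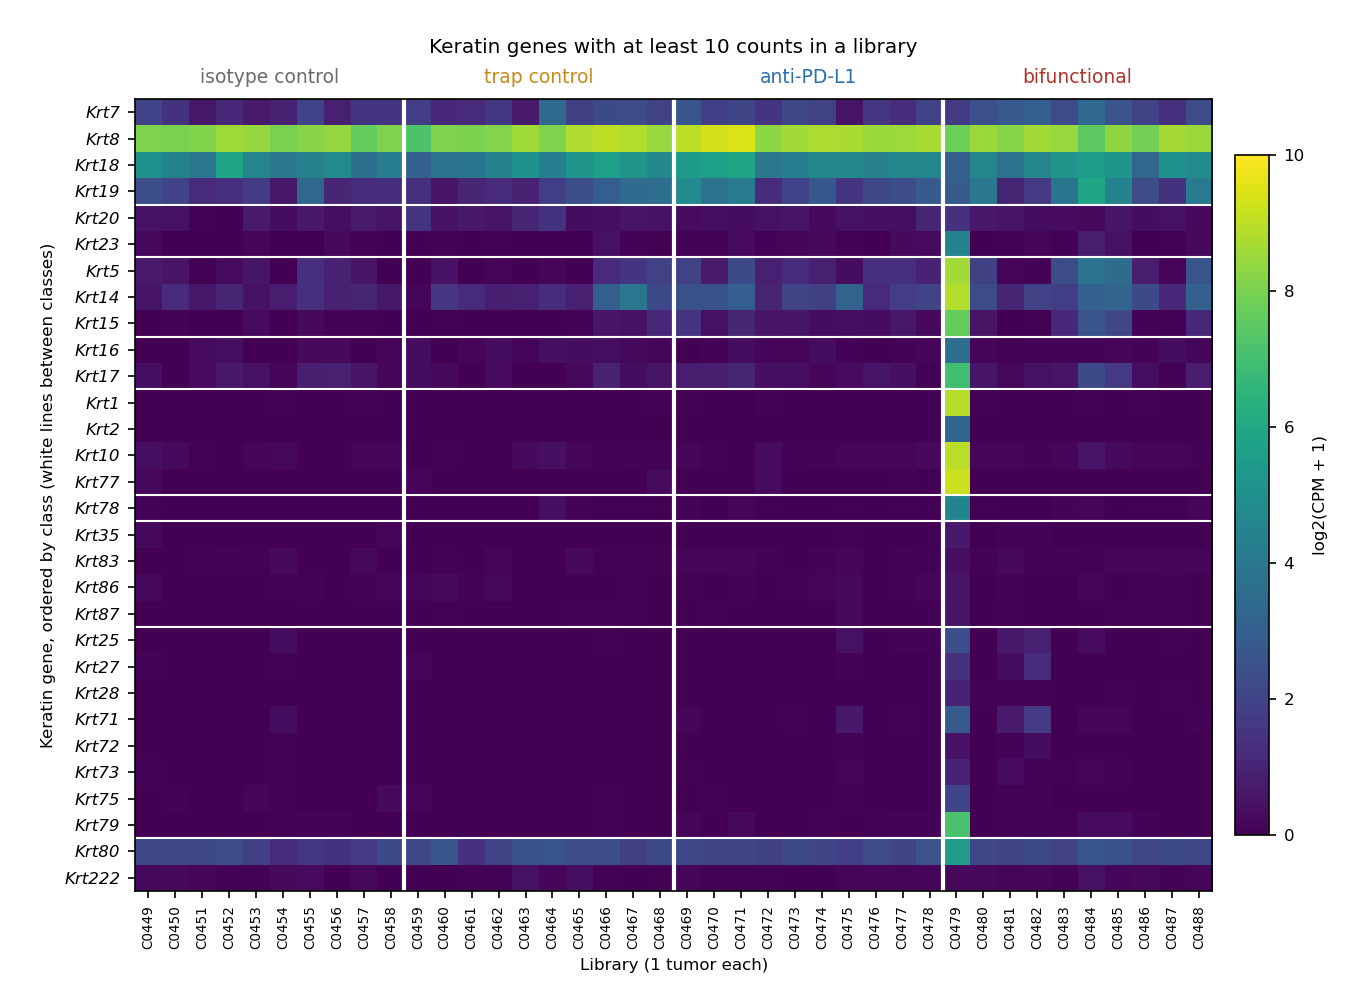
The colour gives log2(CPM + 1) of each keratin with at least 10 counts in a library (rows, ordered by class) in each of the 40 libraries (columns, by group). Krt8 and Krt18 are present in every column, and C0479 is the only column in which the suprabasal keratins Krt1, Krt10 and Krt77 are bright.

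The simple keratins Krt7, Krt8, Krt18 and Krt19 made up between 89.9% and 98.7% of keratin TPM in those 39 libraries, with a median of 97.7%. In C0479 their share was 8.65% of 714.8 TPM, while their own summed level, 61.8 TPM, lay within the range of the bifunctional group (61.6 to 141 TPM). C0479 had 29 keratins with at least 10 counts, against 5 to 12 in the other libraries. Other epithelial genes were low beside the mesenchymal filament gene Vim. Vim ran from 89.5 to 1155 TPM, whereas the epithelial adhesion genes Epcam and Cdh1 ran from 0.05 to 7.52 TPM and from 0.04 to 6.03 TPM. In which cells the simple keratins are made was not tested.

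Krt8 ran from 201 to 376 CPM in the isotype controls (median 272), from 148 to 513 CPM in the trap controls (median 314), from 318 to 705 CPM under anti-PD-L1 (median 419) and from 181 to 398 CPM under the bifunctional protein (median 335). The anti-PD-L1 group sat highest, and its lower libraries overlapped all other groups. The 2 highest were C0471 at 705 CPM and C0470 at 659 CPM. The 2 lowest bifunctional libraries were C0484 at 181 CPM and C0479 at 219 CPM, below the other 8 (239 to 398 CPM).

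Krt18, the partner of Krt8, ran from 11.7 to 55.7 CPM in the isotype controls (median 20.6), 7.54 to 48.5 CPM in the trap controls (median 22.8), 14.5 to 59.5 CPM under anti-PD-L1 (median 23.1) and 7.39 to 44.5 CPM under the bifunctional protein (median 24.9). The 4 groups overlapped almost completely, and no comparison passed the test. The lowest Krt18 of all 40 libraries was in C0479.

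Krt19, a type I simple keratin of ducts, ran from 0.564 to 8.74 CPM in the isotype controls (median 1.53) and 0.442 to 11.1 CPM in the trap controls (median 2.07). It ran from 1.42 to 27.1 CPM under anti-PD-L1 (median 4.96) and 1.05 to 58.5 CPM under the bifunctional protein (median 10.2). Its range within a group was wide and all 4 groups overlapped. The highest value, 58.5 CPM, was in C0484, which also had the highest Epcam (7.52 TPM) and the highest Krt7 (9.72 CPM).

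Krt7, the type II simple keratin of ducts and glands, was low throughout. It had medians of 1.44 CPM in the isotype controls, 2.62 CPM in the trap controls, 2.69 CPM under anti-PD-L1 and 4.25 CPM under the bifunctional protein, with a full range of 0.443 to 9.72 CPM. The groups overlapped.

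**Figure D2:**
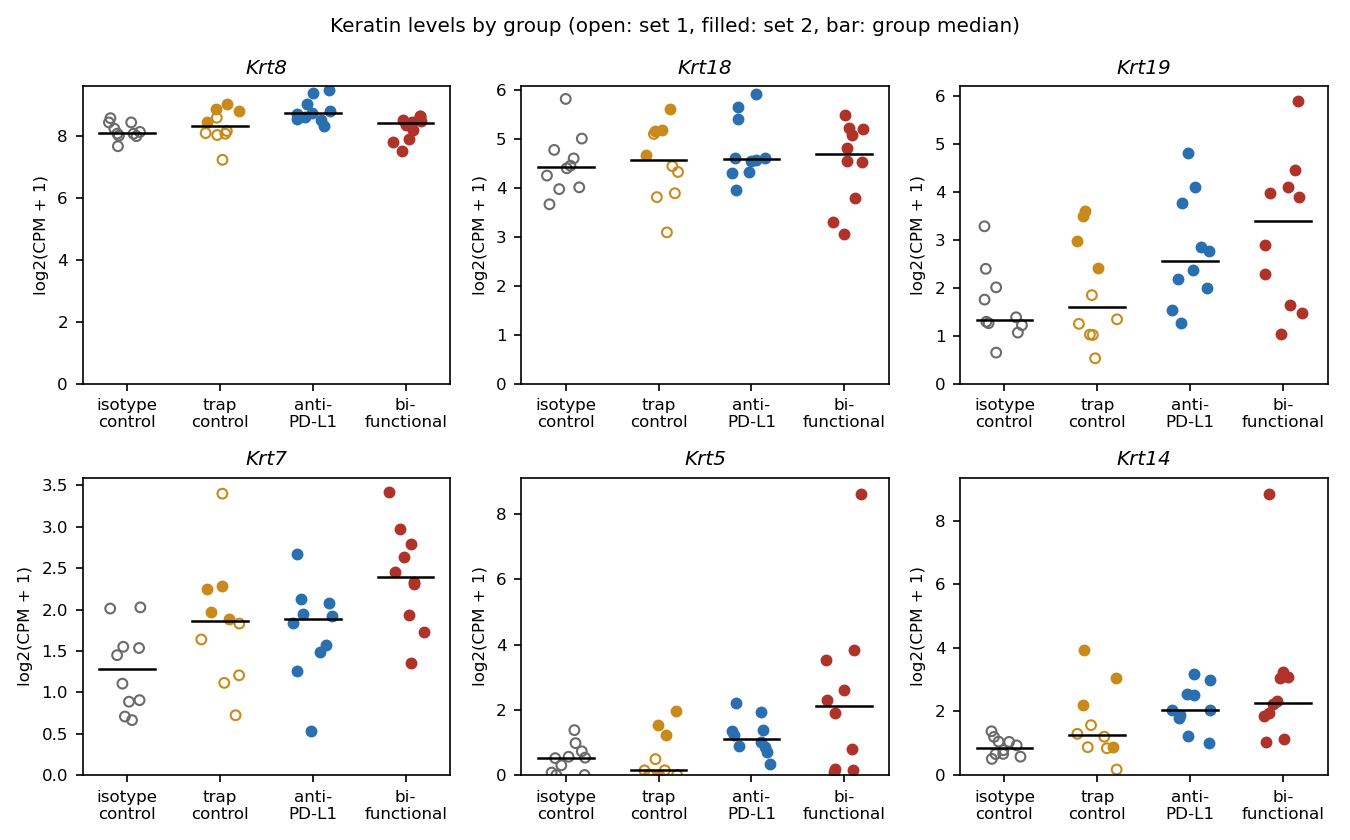
Each point is a library, with the group on the x axis and log2(CPM + 1) on the y axis; open points are set 1, filled points set 2, and bars are group medians. Krt18 overlaps between all groups, while in Krt5 and Krt14 a single bifunctional library (C0479) stands far above all others and 3 of the 4 filled trap control points lie above the open ones of that group.

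Anti-PD-L1 against isotype control asks what blocking PD-L1 did to the tumors. Krt8 and Krt19 were higher under anti-PD-L1. Their log2 differences were 0.68 for Krt8 (SE 0.171, adjusted p = 0.000807 by edgeR) and 1.67 for Krt19 (SE 0.642, adjusted p = 0.0225). These were the only 2 of the 10 keratins tested that passed, where 63.7% of all genes did (31.7% higher). Krt14 differed by 2.12 (SE 0.957, adjusted p = 0.0505), Krt7 by 0.72 (adjusted p = 0.10) and Krt18 by 0.32 (adjusted p = 0.394). Without the bifunctional libraries C0479 and C0484, which act here only through the shared spread, 4 keratins passed, where 65.4% of all genes did. The 2 added were Krt14 (2.13, adjusted p = 0.00059) and Krt15 (3.13, adjusted p = 0.0042). Every anti-PD-L1 library belongs to set 2 and every isotype control to set 1. With the set as a term, estimated from the trap controls alone, Krt8 differed by -0.0436 (adjusted p = 0.968) and Krt19 by -1.02 (adjusted p = 0.754), and 0.0132% of all genes passed. Without the anti-PD-L1 library C0469 (27.1 CPM), Krt19 differed by 1.24 (adjusted p = 0.0849).

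The trap controls hold libraries of both sets, and their keratins differed between them. Krt8 ran from 148 to 380 CPM in the 6 set 1 libraries (median 268) and from 346 to 513 CPM in the 4 set 2 libraries (median 450.6). Krt19 ran from 0.442 to 2.60 CPM in set 1 (median 1.202) and from 4.33 to 11.1 CPM in set 2 (median 8.61), without overlap. Krt14 had medians of 1.07 CPM in set 1 and 5.43 CPM in set 2. The difference between the sets was not tested by itself.

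Trap control against isotype control asks what the TGFβ trap without PD-L1 binding did. No keratin passed the edgeR test, where 27.7% of all genes did. At an unadjusted p under 0.05 there were 2 keratins. The share of all genes at that unadjusted threshold was not counted, here or in the comparisons below. DESeq2 called 3 (Krt7, Krt14 and Krt80), where it called 23.8% of all genes. Without C0479 and C0484, which enter this comparison only through the shared spread, edgeR called Krt14 (1.94, adjusted p = 0.00575) and 29.7% of all genes. The nearest to the threshold was Krt7, at 0.96 (SE 0.393, adjusted p = 0.0646). Within set 1 alone, 10 isotype controls against 6 trap controls, edgeR called no keratin (1 at an unadjusted p under 0.05) and 7.34% of all genes. Krt7 differed by 0.85 (adjusted p = 0.292), Krt8 by -0.10 (adjusted p = 0.72) and Krt19 by -1.01 (adjusted p = 0.228). Over all libraries Krt8 had differed by 0.23 (adjusted p = 0.333) and Krt19 by 0.71 (adjusted p = 0.431), in the opposite direction.

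The bifunctional protein against anti-PD-L1 asks what the trap added to blocking PD-L1, and both groups lie wholly in set 2. By edgeR, 6 of the 10 keratins tested passed, 5 higher and 1 lower under the bifunctional protein, where 13.0% of all genes passed (8.98% higher, 4.0% lower). The 5 that were higher were the basal keratins Krt5, Krt14 and Krt15, the wound and appendage keratin Krt17, and the epithelial keratin Krt80. All 5 calls were lost without C0479, and no keratin passed then, where 254 of all 15241 genes tested did.

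Krt5 ran from 0.253 to 3.60 CPM under anti-PD-L1 (median 1.17) and from 0.0688 to 388 CPM under the bifunctional protein (median 3.33). C0479 had 388 CPM and the next library, C0484, 13.3 CPM, and the lower bifunctional libraries overlapped the anti-PD-L1 group. The difference was 4.87 (SE 1.03, adjusted p = 0.0072), and 1.49 without C0479 (adjusted p = 0.213). For comparison, Krt5 ran from 0 to 1.60 CPM in the isotype controls and 0 to 2.90 CPM in the trap controls.

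Krt14, the partner of Krt5, ran from 1.03 to 8.06 CPM under anti-PD-L1 (median 3.14) and from 1.05 to 457.4 CPM under the bifunctional protein (median 3.86). The next highest bifunctional library, C0485, had 8.53 CPM, so that 9 of 10 libraries covered nearly the same range as the anti-PD-L1 group. The difference was 3.69 (SE 0.864, adjusted p = 0.0105), and 0.16 without C0479 (adjusted p = 0.855). Krt14 ran from 0.421 to 1.60 CPM in the isotype controls and from 0.128 to 14.2 CPM in the trap controls.

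Krt15, a further type I basal keratin that also marks hair follicle stem cells, ran from 0.197 to 1.82 CPM under anti-PD-L1 and from 0 to 201 CPM under the bifunctional protein. C0479 stood alone at 201 CPM, with C0484 next at 5.08 CPM. The difference was 5.19 (SE 1.09, adjusted p = 0.007), and 1.12 without C0479 (adjusted p = 0.325).

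Krt17 ran from 0.0328 to 1.08 CPM under anti-PD-L1 and from 0.033 to 125 CPM under the bifunctional protein, again with C0479 highest and C0484 next at 3.63 CPM. The difference was 4.92 (SE 0.995, adjusted p = 0.00603), and 1.07 without C0479 (adjusted p = 0.255). Krt80 ran from 2.66 to 4.86 CPM under anti-PD-L1 and from 2.84 to 43.4 CPM under the bifunctional protein. Its difference was 1.15 (SE 0.365, adjusted p = 0.0351) and 0.10 without C0479 (adjusted p = 0.75).

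Krt8 was the keratin that was lower under the bifunctional protein than under anti-PD-L1, by -0.56 (SE 0.171, adjusted p = 0.0293). It kept its sign in each of 20 fits that left out 1 library of the 2 groups, from -0.61 to -0.48, and passed in 16 of them. The call was lost without C0479 (-0.52, adjusted p = 0.0865), without C0484 (-0.50, adjusted p = 0.0738), and without either of the 2 highest anti-PD-L1 libraries, C0470 (-0.49, adjusted p = 0.0642) or C0471 (-0.48, adjusted p = 0.0642). Without both C0479 and C0484 it was -0.44 (adjusted p = 0.235). Fewer of all genes passed as well, 254 of 15241 without C0479 and 590 of 15234 without C0484, against 1970 of 15183 with all libraries. Krt18 differed by -0.24 (SE 0.316, adjusted p = 0.619), Krt19 by 0.77 (adjusted p = 0.374), Krt7 by 0.86 (adjusted p = 0.103) and the gut keratin Krt20 by 0.30 (adjusted p = 0.65).

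**Figure D3:**
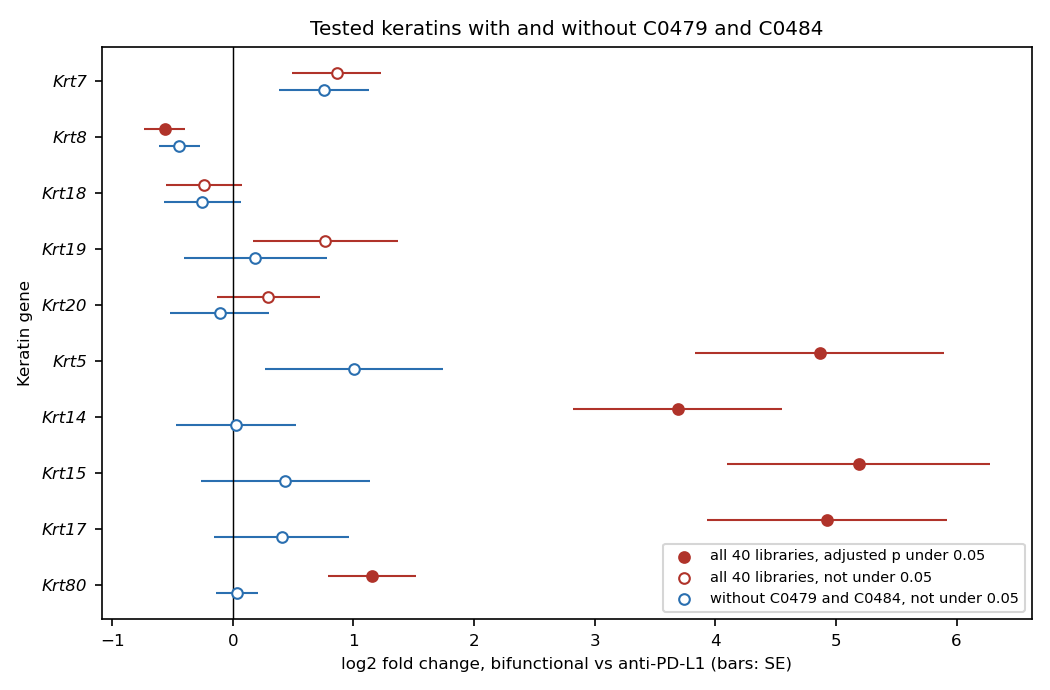
The x axis gives the log2 fold change of the bifunctional against the anti-PD-L1 group for the 10 keratins tested, with SE as bars, from edgeR over all libraries (red) and without C0479 and C0484 (blue); filled points passed the threshold of 0.05. Krt5, Krt14, Krt15 and Krt17 lie between 3.69 and 5.19 in red and between 0.03 and 1.00 in blue, and Krt8 lies at -0.56 and -0.44.

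Leaving out C0479 and C0484 together left 0 keratins called by edgeR (1 at an unadjusted p under 0.05) and 0.321% of all genes. DESeq2 was also run on all libraries, at default settings that replace outlying counts in groups of this size. Which counts of C0479 were replaced was not recorded. DESeq2 called 1 keratin and 15.5% of all genes. That keratin was Krt8 (-0.57, adjusted p = 0.0149); Krt5 was 1.36 (adjusted p = 0.257) and Krt14 as 0.08 (adjusted p = 0.912). The default filter keeps a gene only if enough libraries hold it, so 39 members were not tested, Krt1 and Krt10 among them. Without a filter, 47 were tested and 20 passed, where 6.27% of all genes did. Of these, 19 were higher under the bifunctional protein (4.92% of all genes), and all 19 had their highest value in C0479.

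The bifunctional protein against trap control asks what PD-L1 binding added to the trap. By edgeR 6 of 10 keratins tested were higher, where 33.4% of all genes passed (16.0% higher). They were Krt5 (5.67, SE 1.1, adjusted p = 0.00044), Krt15 (6.12, SE 1.19, adjusted p = 0.00044), Krt17 (5.54, SE 1.07, adjusted p = 0.000414), Krt14 (3.84, SE 0.877, adjusted p = 0.00159), Krt19 (1.72, SE 0.622, adjusted p = 0.0302) and Krt80 (1.03, SE 0.369, adjusted p = 0.0285). No keratin passed edgeR's test without C0479 and C0484 (2 at an unadjusted p under 0.05), where 22.7% of all genes did. Krt19 then differed by 1.14 (adjusted p = 0.158) and Krt80 by -0.0854 (adjusted p = 0.744). Krt8 differed by -0.12 (adjusted p = 0.621) and Krt18 by -0.02 (adjusted p = 0.973). Within set 2, 10 bifunctional against 4 trap control libraries, edgeR called no keratin and no other gene (0.0% of all genes), with 2 keratins at an unadjusted p under 0.05. Krt8 was then -0.52 (adjusted p = 0.342) and Krt19 0.73 (adjusted p = 0.663).

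The bifunctional protein against isotype control compares the full agent with the inactive antibody. Here 7 of 10 keratins tested were higher, where 64.6% of all genes passed (35.6% higher). Besides Krt5, Krt14, Krt15, Krt17 and Krt80 they were Krt19 (2.43, SE 0.652, adjusted p = 0.00146) and Krt7 (1.59, SE 0.39, adjusted p = 0.00062). Without C0479 and C0484, 5 keratins passed, where 60.5% of all genes did: Krt19 (1.86, adjusted p = 0.0108), Krt7 (1.49, adjusted p = 0.00152), Krt14 (2.16, adjusted p = 0.00093), Krt15 (3.57, adjusted p = 0.00176) and Krt5 (2.56, adjusted p = 0.0075). Krt8 differed by 0.11 (adjusted p = 0.578). The 2 groups share no set, and with the set as a term edgeR called no keratin (3 at an unadjusted p under 0.05) and 2.55% of all genes. This comparison and the one of anti-PD-L1 with isotype control share their controls.

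The interaction asks whether the trap made a different change on an active anti-PD-L1 antibody than on the mutated one. It is the difference of bifunctional and anti-PD-L1 less the difference of trap control and isotype control. Krt8 gave -0.79 (SE 0.242, adjusted p = 0.0152) and Krt17 5.35 (SE 1.52, adjusted p = 0.00971), the only 2 of 10 tested that passed, where 25.8% of all genes did. Without C0479 and C0484, Krt8 gave -0.67 (adjusted p = 0.0421) and Krt17 0.87 (adjusted p = 0.489), and 18.8% of all genes passed. With the set as a term Krt8 gave -0.46 (adjusted p = 0.188) and Krt17 6.52 (adjusted p = 0.0318), and 8.69% of all genes passed.

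C0479 held keratins of the basal and suprabasal epidermis and of the root sheath. The suprabasal keratins Krt77, Krt10 and Krt1 reached 600 CPM, 497 CPM and 476.7 CPM there. In the other 39 libraries the highest values were 0.235 CPM for Krt77, 0.473 CPM for Krt10 and 0.0645 CPM for Krt1. Of all Krt1 counts in the series, 99.9% were in C0479, and all 265 counts of Krt2, a keratin of the upper epidermis, were there as well.

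On the length-corrected scale, the order of keratins in C0479 began with Krt14 at 129 TPM, Krt10 at 109 TPM, Krt77 at 91.3 TPM, Krt1 at 88.1 TPM and Krt5 at 80.9 TPM, with Krt8 at 56.4 TPM ranking sixth. Krt17 reached 38.2 TPM and Krt15 55.6 TPM. By class, suprabasal keratins summed to 290 TPM and basal keratins to 265 TPM. Root sheath keratins summed to 34.5 TPM, most of it Krt79, a keratin of the follicle opening listed with this class, at 140 CPM. Hair shaft keratins summed to only 0.67 TPM.

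Smaller members followed the same library. Krt16, a wound keratin, reached 10.8 CPM in C0479 and at most 0.312 CPM elsewhere. It shares 37.6% of its 50-base stretches with other genes, so its counts are uncertain. Krt23, a simple keratin, reached 21.6 CPM in C0479 against at most 0.757 CPM elsewhere, and Krt78, a keratin of stratified epithelia, 21.9 CPM against at most 0.312 CPM. Outside the rule, Krt6a and Krt6b were also highest there.

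Genes that build the cornified layer stood out in the same library. The 20 measured genes of the list of cornified envelope and terminal differentiation genes summed to 448.6 TPM in C0479, with none at 0 counts, and the next library, C0484, reached 9.78 TPM. Loricrin, a main protein of the cornified envelope, was at 16.8 TPM in C0479 and at most 0.01 TPM elsewhere. The desmosome and keratin linker genes summed to 279 TPM in C0479 against at most 100 TPM elsewhere, and the basal keratinocyte genes to 154 TPM against at most 53.9 TPM. The 14 hair follicle genes, 3 of them at 0 counts in C0479, summed to 10.1 TPM there. This lay inside the range of the other libraries, whose highest was 17.5 TPM in the trap control library C0467. Most of that sum was Padi3, an enzyme that modifies hair and epidermal proteins, at 5.91 TPM in C0479 and 16.5 TPM in C0467. Some other genes of that list were highest in C0479: Sox21 at 0.97 TPM (at most 0.02 TPM elsewhere), Tchh, which encodes trichohyalin of the inner root sheath, at 0.82 TPM (at most 0.12 TPM) and Foxn1 at 0.14 TPM (at most 0.02 TPM). Muscle genes were also high in C0479 (400 TPM, against a median of 0.935 TPM over the 40 libraries), as were adipocyte genes (173 TPM, against a median of 19.9 TPM). Neither was highest there. Muscle genes were higher in C0484 (1064 TPM) and the trap control library C0463 (671 TPM). Adipocyte genes were higher in C0484 (873 TPM), C0485 (262 TPM) and C0467 (258 TPM).

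C0484 had another pattern. It held the highest Krt19 of the series, Krt18 at 44.5 CPM, Krt5 at 13.3 CPM and Krt14 at 7.41 CPM, but Krt1 with 1 count, Krt10 with 15 counts and Krt77 with 0. Its muscle genes summed to 1064 TPM and its adipocyte genes to 873 TPM, the highest of all libraries for both. The mammary secretory genes (4.72 TPM) were also highest there. So was the sum of the sebaceous genes (52.6 TPM), of which the glutathione transferase gene Mgst1 made 51.9 TPM. Other genes of that list were highest in C0479: Far2 at 6.75 TPM (at most 0.22 TPM elsewhere), Scd3 at 2.19 TPM (at most 0.23 TPM), Awat2 at 1.86 TPM (at most 0.19 TPM) and Elovl3 at 1.84 TPM (at most 0.03 TPM). The milk protein gene Csn3 was at 2.70 TPM in C0484 and 0.02 TPM in C0479. The libraries C0485, C0483 and C0488, also bifunctional, had Krt5 at 10.5, 3.93 and 5.04 CPM with Csn3 at 2.56, 1.01 and 1.68 TPM. The anti-PD-L1 library C0469 was next after C0484 and C0485 in the mammary secretory sum (2.37 TPM), with Krt5 at 2.83 CPM. The part of these host genes in the keratin levels was not tested.

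Root sheath keratins were also seen apart from the suprabasal ones. These genes, among them Krt25, Krt27 and Krt71, form the sheath that guides the growing hair. Krt71 had 191 counts in C0479, 65 in the bifunctional library C0482, 23 in C0481 and 19 in the anti-PD-L1 library C0475, with at most 5 in any other library. Krt25 followed with 131, 25.03, 20 and 12 counts in the same 4 libraries, and Krt27 with 52.6, 37.0, 10 and 2. In C0482, C0481 and C0475 Krt1 had 0 counts and Krt10 2, 5 and 3.

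**Figure D4:**
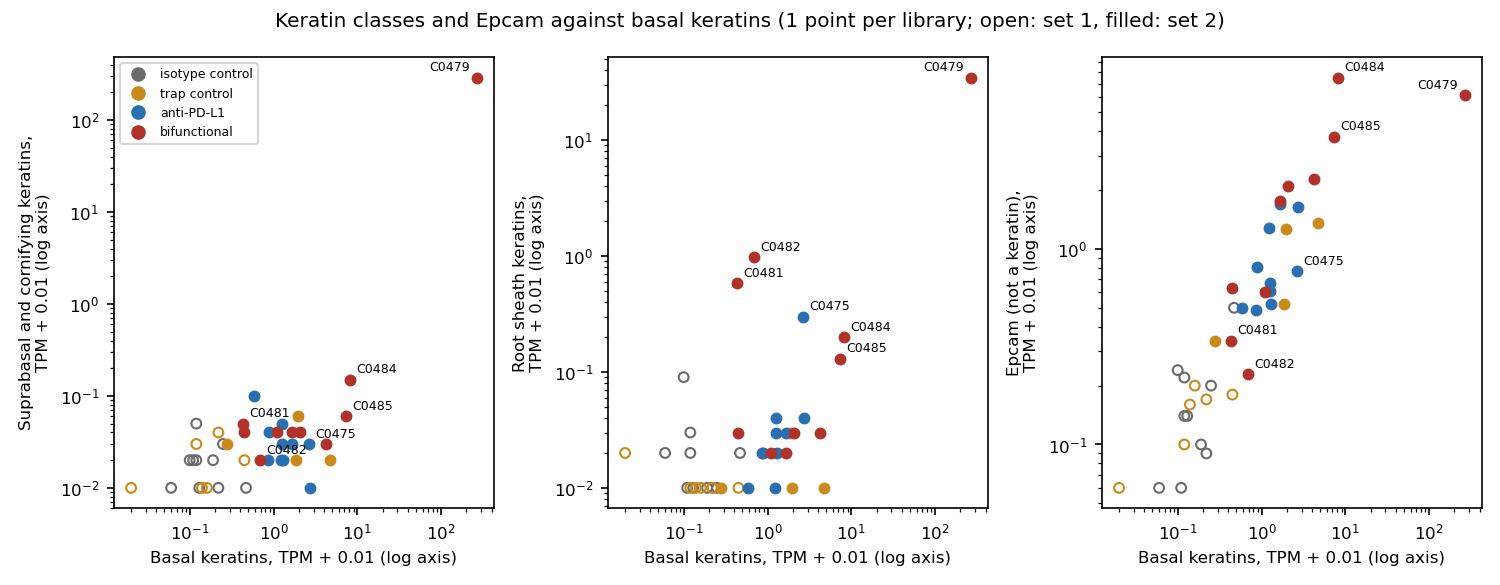
Each point is a library, with summed basal keratins on the x axis (TPM + 0.01, log axis) and, on log y axes, the suprabasal keratins, the root sheath keratins and Epcam; colours are groups, open points set 1 and filled points set 2. Suprabasal keratins reach 290 TPM in C0479 and at most 0.14 TPM elsewhere, root sheath keratins also rise above the rest in C0482, C0481 and C0475, and Epcam is highest in C0484 and C0479.

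Hair shaft keratins were nearly absent. Their 13 members summed to at most 0.67 TPM in any library, and 4 of them (Krt35, Krt83, Krt86 and Krt87) reached 10 counts in a library. Krt86 shares 43.3% of its 50-base stretches with other genes, so its counts are uncertain. The 6 mucosal and corneal keratins summed to at most 0.04 TPM outside bifunctional libraries and to 2.89 TPM in C0479, nearly all of it Krt78.

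Krt8 and Krt18 were compared as a ratio within each library, which does not depend on the scaling between libraries. The TPM ratio of Krt8 to Krt18 had a median of 11.04, far from equal levels of the 2 partners. It ran from 5.08 to 13.7 in the isotype controls, 7.92 to 15.5 in the trap controls and 8.88 to 16.5 under anti-PD-L1. Under the bifunctional protein it ran from 3.06 (C0484) to 22.2 (C0479). Thus the 2 extremes of all 40 libraries were the same libraries that stood apart in other keratins. The next highest ratio, 20.2, was in the bifunctional library C0486, which did not stand apart in basal (1.1 TPM) or suprabasal keratins (0.03 TPM). The largest difference between groups was anti-PD-L1 against isotype control, at 0.37 on the log2 scale (two-sided permutation test, p = 0.0393, adjusted p = 0.196 over the 5 comparisons). Of the 50-base stretches of Krt8, 26.9% also occur in another gene, mainly the processed pseudogene Krt8-ps, which was not analysed here, so the Krt8 level and this ratio depend on how shared reads were assigned.

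Across libraries, 10 pairs of genes were correlated within each set, 20 relations in all, on log2(CPM + 1) with two-sided permutation tests. Krt8 and Krt18 rose and fell together. Pearson's r was 0.85 in set 1 (16 libraries, p = 0.00011, adjusted p = 0.0014; Spearman's rho 0.76, adjusted p = 0.0068), and 0.76 without the 2 libraries farthest from the median Krt8. In set 2 r was 0.62 (24 libraries, p = 0.0015, adjusted p = 0.01; rho 0.58, p = 0.00416, adjusted p = 0.0166), and 0.85 without C0484 and C0471.

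Krt19 correlated with Krt18 in set 2 (r = 0.57, p = 0.00413, adjusted p = 0.0165; rho 0.65, p = 0.00082, adjusted p = 0.0068; r = 0.50 without C0484 and C0469). In set 1 r was 0.24 (adjusted p = 0.513). Krt5 and Krt14 gave r = 0.87 in set 2 (p = 0.00014, adjusted p = 0.0014; rho 0.60, p = 0.00267, adjusted p = 0.0134) and r = 0.54 without C0479 and C0484. In set 1, where both genes are near 0, r was 0.33 (adjusted p = 0.414). Krt1 and Krt10 gave r = 0.998 in set 2, (p = 0.00355, adjusted p = 0.0165; rho 0.40, adjusted p = 0.185), and 0.25 without C0479 and C0472, so the relation rests on those libraries. The shared depth and scaling of each library enter all of these correlations.

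Krt14 and Krt8 were not correlated detectably in either set (r = 0.29 in set 1 and -0.24 in set 2, adjusted p = 0.437 and 0.427). Krt8 and Epcam gave r = 0.11 in set 1 and -0.27 in set 2 (adjusted p = 0.758 and 0.414). Krt14 and the adipocyte gene Adipoq gave r = 0.49 in set 2 (p = 0.0185, adjusted p = 0.0617; rho 0.66, p = 0.00071, adjusted p = 0.0068) and r = 0.57 without C0479 and C0467, but -0.10 in set 1 (adjusted p = 0.758). Krt14 and the muscle gene Ckm gave r = 0.41 in set 2 (p = 0.0586, adjusted p = 0.167; rho 0.21, adjusted p = 0.64), and 0.05 without C0479 and C0467. Krt7 and Krt8 gave r = -0.36 in set 1 (adjusted p = 0.412; rho -0.42, adjusted p = 0.294) and r = -0.23 in set 2 (adjusted p = 0.437; rho -0.15, adjusted p = 0.652). Krt14 and the milk gene Csn3 gave r = 0.15 in set 1 (adjusted p = 0.758; rho 0.16, adjusted p = 0.652) and r = 0.01 in set 2 (adjusted p = 0.956; rho 0.27, adjusted p = 0.4875), and 0.51 in set 2 without C0479 and C0467.

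The genes that accompany keratins were read from the same fit for bifunctional against anti-PD-L1, where 13.0% of all genes passed (8.98% higher, 4.0% lower). All 5 tested cornified envelope genes were higher (median 3.74, where the median over all genes was 0.04), led by Asprv1 (4.26, adjusted p = 0.007), Dmkn (5.13, adjusted p = 0.00739) and Cdsn (3.51, adjusted p = 0.00997). Of 12 desmosome and linker genes, 6 were higher (median 1.36), among them Perp at 4.98 (adjusted p = 0.00547). Of 11 epithelial carcinoma identity genes, 4 were higher (median 1.54), including Cdh1 at 1.54 (adjusted p = 0.0192) and Esrp2, a splicing regulator of epithelial cells, at 0.98 (adjusted p = 0.0195). Of 10 basal keratinocyte genes 2 were higher (median 0.59).

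Of the other lists, 5 of 7 muscle genes, 2 of 6 adipocyte genes, 2 of 3 sebaceous genes and 1 of 8 other intermediate filament genes (Nefl) were higher. None of 3 hair follicle, 2 mammary secretory and 2 mesothelium genes passed, and no gene of any of these lists was lower. Vim differed by -0.18 (adjusted p = 0.277). Without C0479 and C0484, no gene of any of these lists passed in this comparison, where 0.321% of all genes did.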

How the data were processed

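RNA from 40 snap-frozen tumors was sequenced after ribosomal depletion and random priming, per the labels' protocols. The authors deposited a table of expected counts and a table of TPM for 39012 genes, made against mm10 with Bowtie2 2.3.1 and RSEM 1.2.31 among the tools, per the submitters' processing notes. Annotation, strand and filters are not given in the sources used here. Total expected counts ran from 13495835 to 27658263. Identifiers were matched to GENCODE M21 symbols (96.4%).

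Expected counts, of which 14.0% were not whole, were rounded and fitted with edgeR 4.0.16 (R 4.3.3, quasi-likelihood F test, TMM, default filter by group, 1 mean per group over 40 libraries), which kept 15183 genes. P-values are two-sided and adjusted by Benjamini-Hochberg over all genes, with a threshold of 0.05. Fold changes are log2 with SE. Ratios used TPM with a pseudocount of 0.1, and were computed where both medians were at least 1 TPM (1 of the pairs listed). Correlations used 100000 permutations (scipy 1.17.1). Alternatives used DESeq2 1.42.0 and limma 3.58.1. DESeq2 kept its default replacement of outlying counts, so its results need not hold every C0479 count. The scripts were tested on simulated data. The simulation of the edgeR step held no outlying library and no difference between sets, so it does not cover calls that rest on C0479 or on the set.

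Members and lists were chosen with earlier results of these data known. Values are given for the 8 defining keratins, for members whose group mean reached 1 CPM and for members called in a comparison, the others by counts and ranges. Of the other lists, up to 3 genes with the smallest p are named, plus Vim, Epcam and Cdh1. Genes named for C0479, C0484 or the root sheath pattern beyond this were chosen after their values were seen.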

Additional observations from a re-analysis of the deposited data

Results flagged for a closer look

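Of 64 groups of 10 values (16 named keratins in 4 groups), 21 held a library that stood apart from the rest by Dixon's test at the 95% level. Chance flags about 1 in 20, a rate that does not hold where most values are 0. In 12 of the 21 the library was C0479, in the bifunctional group. Its log2(CPM + 1) values there were 4.496 for Krt23, 8.61 for Krt5, 8.84 for Krt14, 7.65 for Krt15, 3.56 for Krt16, 6.98 for Krt17, 8.90 for Krt1, 8.96 for Krt10, 9.23 for Krt77, 4.52 for Krt78, 7.14 for Krt79, 5.47 for Krt80. The other 9 were at most 1.16 on this scale. They were Krt23 in the trap control library C0466 (0.44), Krt15 in the trap control library C0468 (1.16), Krt1 in the trap control library C0468 (0.0823), Krt1 in the anti-PD-L1 library C0472 (0.0901), Krt77 in the isotype control library C0449 (0.22), Krt77 in the anti-PD-L1 library C0472 (0.29), Krt78 in the isotype control library C0449 (0.11), Krt78 in the trap control library C0464 (0.39), Krt79 in the trap control library C0466 (0.0499). Most of these rest on a few counts. Krt16, Krt23, Krt77, Krt78 and Krt79 were named only because C0479 lifted their bifunctional mean to at least 1 CPM. Their flags in C0479 were therefore fixed by that choice.

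The change between the 2 arms differed for Krt17 (5.35, edgeR adjusted p = 0.00971) and Krt8 (-0.79, adjusted p = 0.0152) in the interaction of all libraries. Without C0479 the value for Krt17 was 1.54 (adjusted p = 0.211).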

How the results depend on the processing

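Keratin calls depended on the filter, the tool and single libraries. The filter on a mean of at least 1 CPM, taken before TMM scaling, keeps a gene if any 1 group reaches that mean. Krt1, Krt2, Krt10, Krt16, Krt23, Krt71, Krt77, Krt78 and Krt79 passed it only through C0479, so their higher bifunctional mean was fixed by this filter. The limma fits kept genes with a group mean of at least 0.1 TPM. Krt1, Krt2, Krt10, Krt16, Krt20, Krt23, Krt25, Krt71, Krt77, Krt78 and Krt79 passed that only through C0479. Their higher bifunctional mean TPM was fixed in the same way. Each count is given with the number of keratins tested and, in brackets, the share of all genes that passed under the same setting. The counts from fits that left out each library in turn are given without these, and the genes passing in those fits are given here. For bifunctional against anti-PD-L1, all genes passing in those fits ran from 254 of 15241 (without C0479) to 3110 of 15312 (without C0482). Bifunctional against trap control gave 3982 of 15290 to 6061 of 15276, and 0 within set 2 alone. Trap control against isotype control gave 3250 of 15276 to 4735 of 15324. Anti-PD-L1 against isotype control gave 9372 of 15293 to 9674 of 15317. Bifunctional against isotype control gave 9557 of 15308 to 9903 of 15313. The interaction gave 3185 of 15322 to 4674 of 15324. For bifunctional against anti-PD-L1, the reported 6 of 10 (13.0%) became 20 of 47 (6.27%) with no filter, 14 of 18 (15.9%) with a mean of at least 1 CPM, 1 of 17 (15.5%) with DESeq2, 1 of 20 (14.7%) with limma on log2(TPM + 1), 1 of 20 (6.92%) with limma on log2(TPM + 0.1), 0 of 10 (0.321%) with C0479 and C0484 left out, and 0 to 6 keratins when each library was left out in turn (0 without C0479). For bifunctional against trap control, the reported 6 of 10 (33.4%) became 22 of 47 (17.0%) with no filter, 14 of 18 (35.7%) with a mean of at least 1 CPM, 10 of 20 (79.7%) with limma on log2(TPM + 1), 12 of 20 (79.7%) with limma on log2(TPM + 0.1), 0 of 10 (0.0%) with the set as a term, 0 of 10 (22.7%) with C0479 and C0484 left out, 2 of 8 (19.9%) with only the groups compared, 0 of 10 (0.0%) with set 2 alone, and 0 to 7 keratins when each library was left out in turn (the 0 only within set 2 alone). For trap control against isotype control, the reported 0 of 10 (27.7%) became 3 of 19 (23.8%) with DESeq2, 1 of 20 (28.2%) with limma on log2(TPM + 0.1), 1 of 10 (29.7%) with C0479 and C0484 left out, 1 of 6 (21%) with only the groups compared, and 0 to 1 keratins when each library was left out in turn. For anti-PD-L1 against isotype control, the reported 2 of 10 (63.7%) became 4 of 32 (53.1%) with DESeq2, 5 of 20 (72.7%) with limma on log2(TPM + 1), 7 of 20 (75.9%) with limma on log2(TPM + 0.1), 0 of 10 (0.0132%) with the set as a term, 4 of 10 (65.4%) with C0479 and C0484 left out, 4 of 7 (69.1%) with only the groups compared, and 1 to 3 keratins when each library was left out in turn. For bifunctional against isotype control, the reported 7 of 10 (64.6%) became 23 of 47 (42.7%) with no filter, 16 of 18 (65.3%) with a mean of at least 1 CPM, 12 of 20 (85.5%) with limma on log2(TPM + 1), 14 of 20 (85.6%) with limma on log2(TPM + 0.1), 0 of 10 (2.55%) with the set as a term, 4 of 6 (65.7%) with only the groups compared, and 6 to 7 keratins when each library was left out in turn. For the interaction, the reported 2 of 10 (25.8%) became 4 of 47 (12.1%) with no filter, 1 of 19 (23.3%) with DESeq2, 0 of 20 (0.781%) with limma on log2(TPM + 1), 0 of 20 (0.921%) with limma on log2(TPM + 0.1), 1 of 10 (8.69%) with the set as a term, 1 of 10 (18.8%) with C0479 and C0484 left out, and 1 to 3 keratins when each library was left out in turn. The Krt8/Krt18 ratio for anti-PD-L1 against isotype control was 0.59 (permutation test, adjusted p = 0.0026) with a pseudocount of 1 TPM, and its adjusted p missed the threshold with 0.1. That for bifunctional against trap control, -0.0143 as reported, was 0.16 with a pseudocount of 1 TPM, 0.16 within set 2 and 0.0744 without C0479 and C0484.

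Several differences turned direction, most of them called under neither setting. TPM shifts the median of all genes, by 0.83 for bifunctional against trap control at TPM + 0.1 and 0.49 at TPM + 1. With limma on log2(TPM + 0.1), the opposite sign was seen in bifunctional against trap control for Krt8 (0.91), Krt18 (0.92) and Krt20 (0.20), in the interaction for Krt7 (0.32), Krt14 (-0.21), Krt19 (-0.13) and Krt80 (-0.0946), in trap control against isotype control for Krt17 (0.0299). With limma on log2(TPM + 1), the opposite sign was seen in bifunctional against trap control for Krt8 (0.88), Krt18 (0.72) and Krt20 (0.0476), in the interaction for Krt7 (0.31), in trap control against isotype control for Krt17 (0.0119). With DESeq2, the opposite sign was seen in bifunctional against trap control for Krt80 (-0.032), in the interaction for Krt14 (-1.17), Krt15 (-1.05) and Krt80 (-0.35). With no filter, the opposite sign was seen in the interaction for Krt19 (-0.0164). With the set as a term, the opposite sign was seen in anti-PD-L1 against isotype control for Krt5 (-1.85), Krt8 (-0.0436), Krt14 (-0.35), Krt15 (-2.01), Krt17 (-1.61), Krt18 (-0.68) and Krt19 (-1.02), in bifunctional against isotype control for Krt8 (-0.61), Krt18 (-0.92) and Krt19 (-0.26), in bifunctional against trap control for Krt20 (0.41), in the interaction for Krt7 (0.0099) and Krt18 (0.16), in trap control against isotype control for Krt5 (-1.74), Krt8 (-0.10), Krt15 (-2.03), Krt18 (-0.40) and Krt19 (-1.03). With set 1 alone, the opposite sign was seen in trap control against isotype control for Krt8 (-0.10), Krt18 (-0.39) and Krt19 (-1.01). With set 2 alone, the opposite sign was seen in bifunctional against trap control for Krt20 (0.38). With C0479 and C0484 left out, the opposite sign was seen in bifunctional against anti-PD-L1 for Krt20 (-0.11), in bifunctional against isotype control for Krt20 (-0.0655), in bifunctional against trap control for Krt8 (0.00702) and Krt80 (-0.0854), in the interaction for Krt14 (-1.92), Krt15 (-1.67), Krt19 (-0.53) and Krt80 (-0.40). Of the correlations, Krt7 with Krt8 was 0.0150 and Krt14 with Adipoq 0.19 in set 1 on log2(TPM + 1). In set 2 without C0479 and C0484, Krt14 with Krt8 was 0.36, Krt8 with Epcam 0.25 and Krt14 with Ckm -0.22. Krt80 for bifunctional against trap control was -0.0206 without C0479 alone, the lowest of its fits without single libraries (highest 1.13). The causes were not tested. No paired analysis was possible because the labels give no replicate numbers that groups share. Of the 49 members, 39 did not pass the filter on low counts, among them Krt1, Krt10 and Krt77, whose counts lay mostly in 1 library.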
